A study of Bos taurus with 20 samples.

Results

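WNT ligands are secreted signalling proteins that bind Frizzled receptors (FZD) and the co-receptors LRP5 and LRP6 at the surface of a target cell, which keeps beta-catenin from being broken down or, in the other branches of the pathway, acts without it. R-spondins (RSPO) are secreted amplifiers: they bind LGR receptors and hold back the ligases ZNRF3 and RNF43, which clear Frizzled from the membrane. Secreted Frizzled-related proteins (SFRP) can bind WNT in place of the receptor, and Dickkopf proteins (DKK) mostly act on LRP5 and LRP6. In the ovary, RSPO1 and WNT4 are known for their part in female gonad development, and WNT signalling takes part in the growth and function of granulosa cells.

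The genes described are those of a bovine 60K Agilent array whose symbol starts with WNT, FZD, SFRP, DKK or RSPO followed by a digit. They were 41 of 22550 genes or transcripts on the array, with 92 of its 61325 non-control spots: 19 WNT, 10 FZD, 4 SFRP, 4 DKK and 4 RSPO genes. Gene expression was measured in theca cells (TH), which were scraped from the follicle wall, granulosa cells (GC), cumulus cells (CC) and immature oocytes of 3 to 6 mm antral follicles of slaughtered cows, and in CC that had been matured in vitro (IVM) for 4 h, with 4 replicates of each. No treatment other than IVM was given. Each array was hybridised in 1 colour (Cy3) with 200 ng of total RNA as the starting amount. Values are log2 processed intensities relative to the 75th percentile of the same array, so 0 is that percentile and a difference of 1 is a doubling. Whether the numbered replicates came from separate animals or pools was not stated in the labels, so p-values measure the spread between these samples. The labels were checked against marker genes. The summed level of 6 theca markers was 8.73 to 9.40 on TH arrays and at most 6.65 elsewhere. Of these, CYP17A1 was well above background on 4 of 4 TH arrays and on 1 other array. INSL3 was so on 4 arrays of every group, and STAR was higher in oocytes (3.32 to 3.53) than in TH (1.91 to 2.57). Granulosa markers (5 genes) summed to 8.46 to 9.81 in GC, 9.55 to 9.69 in CC and 10.28 to 10.57 in CC after IVM. In TH they summed to 7.23 to 8.07, with 4 of 5 well above background on at least 3 arrays, and in oocytes to at most 2.22. The summed level of 6 oocyte markers was 7.95 to 8.37 on oocyte arrays and at most 1.59 elsewhere. TH also carried pericyte, endothelial and leukocyte markers (5 of 5, 4 of 5 and 5 of 5 listed genes well above background on at least 3 arrays). In the other groups 3 or 4 pericyte, 1 to 3 endothelial and 3 or 4 leukocyte markers passed this mark.

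Every member had 2 different 60-base probes, and before any gene is described, the pairs that did not give the same level are shown. In 17 members the 2 probes shared a run of at least 20 bases, among them WNT7A with 56. In 10 of the 31 members that were well above background on at least 3 arrays of some group, the probes of a gene lay more than 2 log2 units apart in at least 1 group. The sequences of 4 such WNT pairs, with WNT7A for comparison, follow as the array file gives them. Capitals mark a 12-base run that lies in a cysteine-rich stretch conserved among WNT genes, and in WNT5A probe 1 the opening stretch without adenine.
WNT7A probe 1: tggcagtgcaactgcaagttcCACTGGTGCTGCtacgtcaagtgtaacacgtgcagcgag
WNT7A probe 2: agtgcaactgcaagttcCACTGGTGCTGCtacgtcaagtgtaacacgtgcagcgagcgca
WNT7B probe 1: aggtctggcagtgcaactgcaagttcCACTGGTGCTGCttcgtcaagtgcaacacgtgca
WNT7B probe 2: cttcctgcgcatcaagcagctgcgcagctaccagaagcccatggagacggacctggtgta
WNT8B probe 1: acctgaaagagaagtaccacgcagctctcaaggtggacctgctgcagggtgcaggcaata
WNT8B probe 2: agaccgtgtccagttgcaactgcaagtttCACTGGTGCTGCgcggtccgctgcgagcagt
WNT5B probe 1: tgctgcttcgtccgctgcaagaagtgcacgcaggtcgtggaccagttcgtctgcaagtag
WNT5B probe 2: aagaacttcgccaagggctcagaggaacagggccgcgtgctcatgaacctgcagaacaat
WNT5A probe 1: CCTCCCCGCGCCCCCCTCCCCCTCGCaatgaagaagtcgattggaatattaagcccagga
WNT5A probe 2: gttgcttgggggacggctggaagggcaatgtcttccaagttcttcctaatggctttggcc

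WNT7B probe 1 and WNT7A probe 1 shared a run of 34 bases and were identical at 53 of 55 bases where they overlapped. The difference of GC from CC was 1.79 on WNT7B probe 1 (adjusted p = 0.12), 2.26 on WNT7A probe 1 and 1.85 on WNT7A probe 2 (adjusted p = 0.014 and 0.027). WNT7B probe 2, which has no such run, was not well above background on any array. WNT7A probe 2 was identical to WNT7B probe 1 at 49 of 51 overlapping bases. RNA of WNT7B and of WNT7A cannot be told apart on WNT7B probe 1 or on either WNT7A probe. Values given below as WNT7A carry this limit. The capital run occurred in 5 of 50909 distinct probe sequences of the array, 4 of them the WNT7A, WNT7B and WNT8B probes shown, and on either strand in 0.0118% of them. It was chosen after the sequences and values had been seen.

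The WNT8B probes were called in opposite directions. Probe 1 was well above background on the 4 oocyte arrays only, at a mean of -2.40, whereas probe 2 was lowest in oocytes (-5.48), with -3.78 in TH, -3.64 in GC and -4.44 in CC. WNT5A probe 1 ranged from 6.13 in oocytes to 8.83 in CC after IVM, and at most 0.52% of all spots of an array were brighter. WNT5A probe 2 ranged from -4.64 in TH to -2.10 in GC. The largest distance between the WNT5A probes was 13.45 log2 units, so the gene's median lay between values that no spot gave and is not read as a level here. DKK2 also had probes called in opposite directions in the oocyte: probe 1 was at -1.10 in TH and -1.52 in oocytes and not above background in GC and CC, and probe 2 fell from -3.95 in GC and -4.05 in TH to -6.47 in oocytes. In FZD5 the opposite calls fell in the comparison of TH with GC and CC. For RSPO2, as for most members, the probes were close, as the plot of probe means shows.

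**Figure D1:**
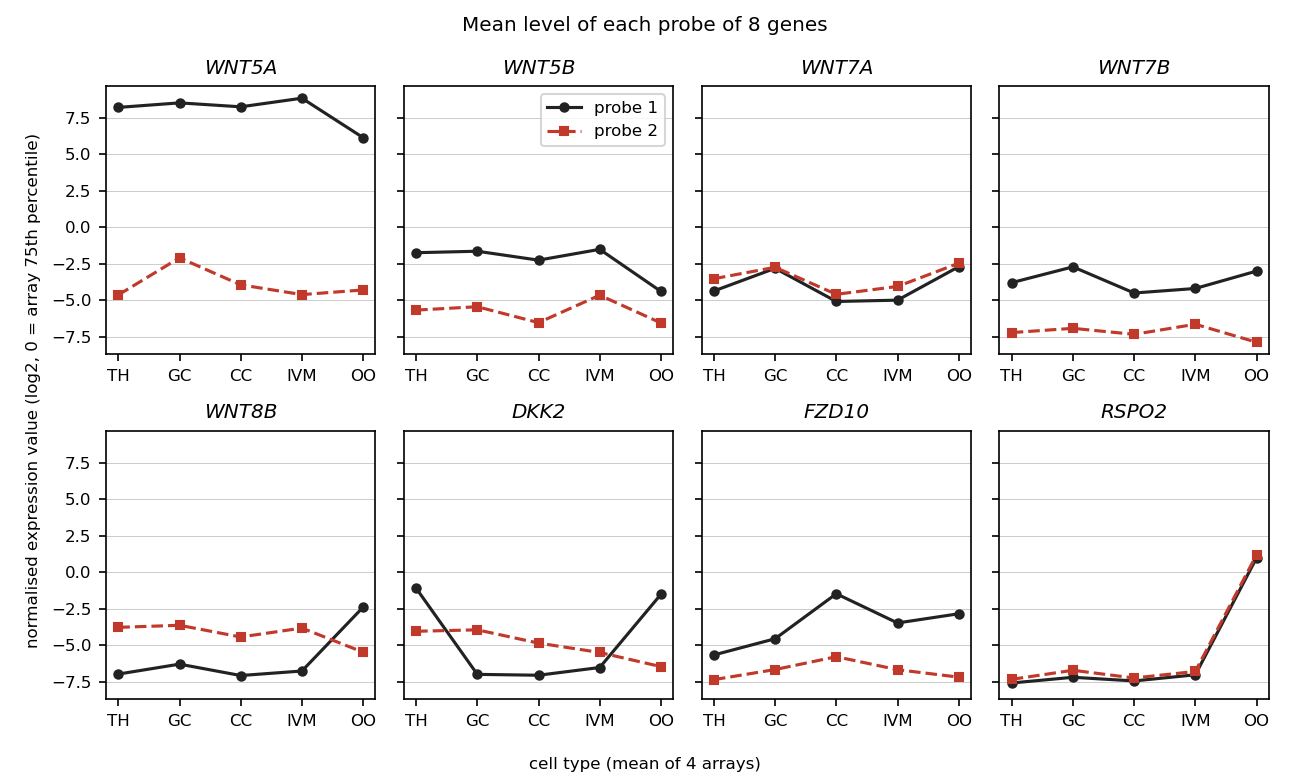
Mean level of each probe (4 arrays per group) of 8 genes, in log2 units relative to the 75th percentile of the array, against cell type. The probes of WNT5A lie up to 13.45 apart, those of WNT8B and DKK2 cross, and those of RSPO2 and WNT7A run close together.

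Of the 41 members, 31 were well above background (the scanner's mark, from any probe) on at least 3 of the 4 arrays of at least 1 group. TH had 24 such members, GC 18, CC 17, CC after IVM 16 and oocytes 25. DKK4 and SFRP5 were not well above background on any array. The others that missed this mark reached 1 or 2 of the 20 arrays: WNT1, WNT3A, WNT8A, WNT9A, WNT9B, WNT10A, WNT10B and WNT16. All 4 R-spondin genes passed this mark in oocytes, 2 in TH (RSPO1 and RSPO3), 1 in GC (RSPO3) and 0 in CC. Across TH, GC, CC and oocytes, 32 of 41 members (78.0%) passed the F-test of limma at an adjusted p under 0.05, where 71.3% of all genes did. WNT6 and WNT10A lie 7.3 kb apart on chromosome 2 in the array's annotation (UMD 3.1). WNT6 was well above background on 4 TH arrays, and WNT10A on no TH array. WNT9A and WNT3A on chromosome 7, WNT1 and WNT10B on chromosome 5, and WNT3 and WNT9B on chromosome 19 are the other neighbours, and of these 6 genes WNT3 alone reached 3 arrays of a group, in oocytes.

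**Figure D2:**
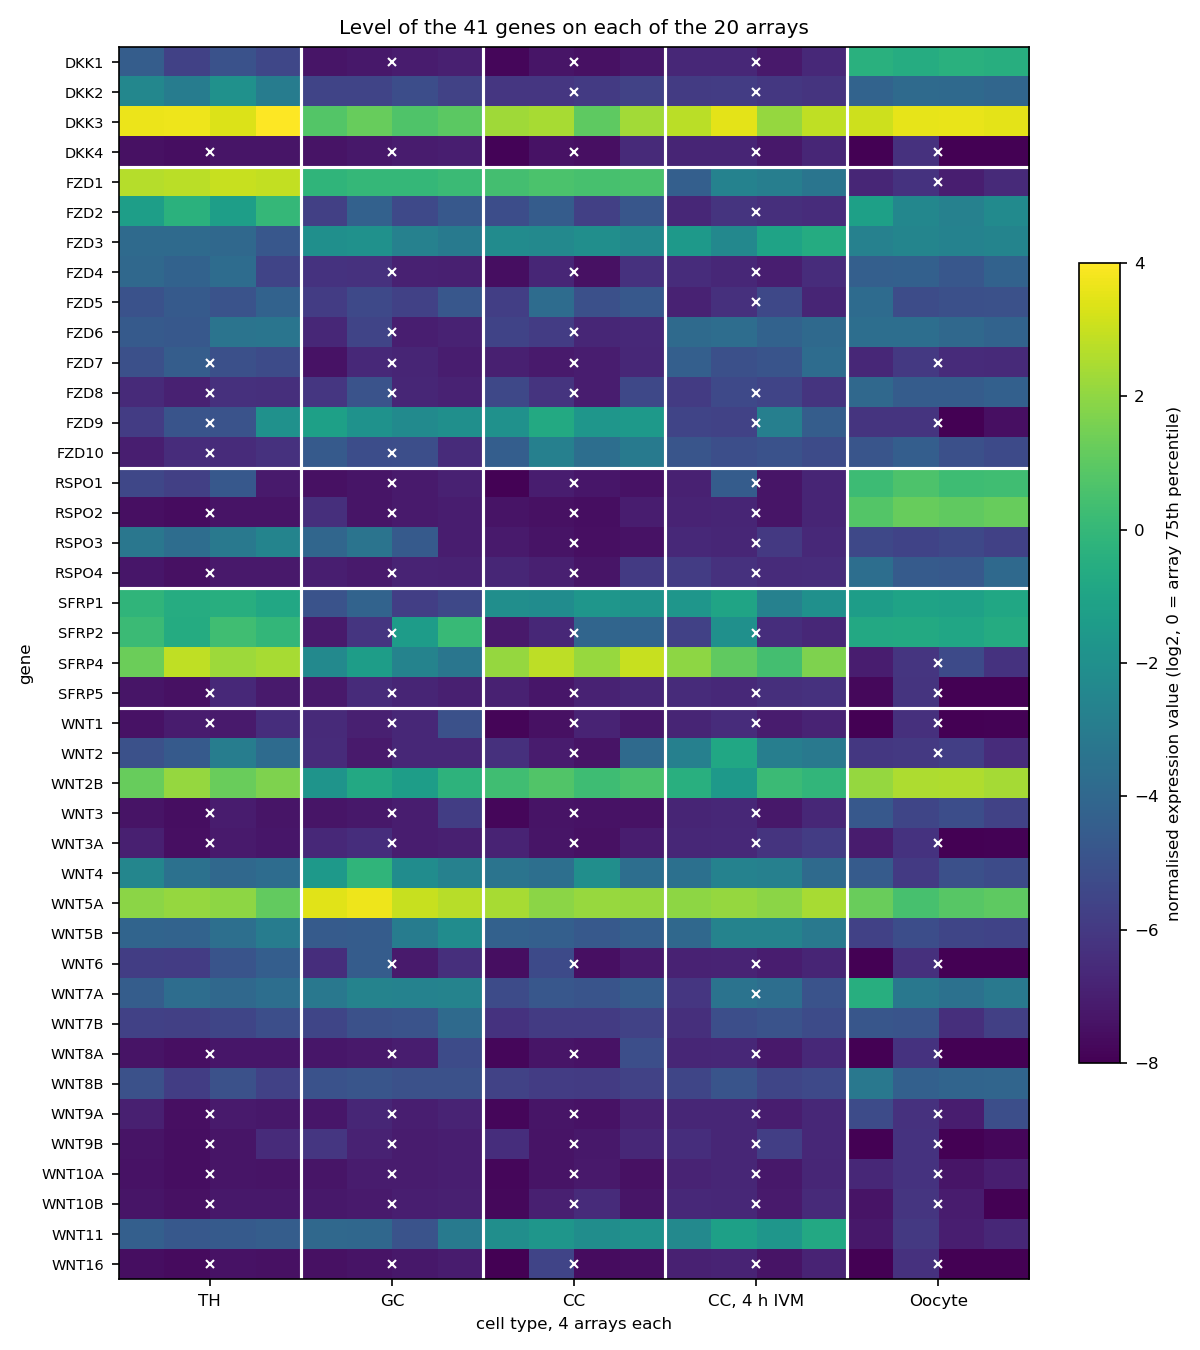
Level of the 41 genes (rows) on the 20 arrays (columns, 4 per group), in log2 units relative to the 75th percentile of the array, with colours capped at -8 and 4. A white cross marks a gene and group in which under 3 arrays were well above background. RSPO1, RSPO2 and DKK1 are bright in oocytes, and FZD1 and SFRP4 are dark there.

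The oocyte was set against the mean of the 3 somatic cell types to ask which members differ between the gamete and the cells around it. RSPO1, RSPO2, RSPO4 and DKK1 were higher in the oocyte, though RSPO4 turned sign with normexp background correction, while FZD1, SFRP4, FZD9, WNT11 and WNT4 were lower. Of the members, 26 of 41 (63.4%) were called by limma, 17 higher and 9 lower, against 71.3% of all genes (32.9% higher and 38.3% lower), so the share of members called was below the background. The median difference was 0.21 over the members and -0.52 over all genes. With quantile normalization the median over all genes was -0.01 and the calls were 18 higher and 8 lower, whereas with normexp background correction 7 were higher and 29 lower, and with the deposited log2 values 17 and 20. With the percentile taken over probes detected on all arrays they were 16 and 13. The median over all genes was -1.3 with normexp, -0.63 with the deposited values and -0.73 with this percentile. The sign of 9 of the 26 calls turned under normexp, all of them members called higher: DKK2, FZD4, FZD6, FZD8, RSPO4, WNT3, WNT8B, WNT9A and WNT10A. The calls of FZD2 and WNT7A were lost with normexp, with differences of 0.03 and 0.20 (adjusted p = 0.88 and 0.52). Fewer cells of a type and less RNA per cell cannot be told apart in these bulk samples.

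RSPO2 (chromosome 14, 58537071 to 58653100, UMD 3.1), an R-spondin, was at 0.79, 1.19, 1.09 and 1.23 on the oocyte arrays. Over the 12 TH, GC and CC arrays it was between -7.61 and -6.38, and on no somatic array, CC after IVM included, was it well above background. The groups did not overlap. Because its somatic level is only a bound, the oocyte was at least 82.3-fold higher than TH, at least 69.0-fold higher than GC and at least 89.7-fold higher than CC. Here and for other such bounds, the dim group was set per array to the higher of the measured value and the lowest signal well above background. The fitted difference was 8.33 (SE 0.16, adjusted p = 1.5e-15), and 4.42 with normexp.

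RSPO1 (chromosome 3, 108854245 to 108874912) was at 0.21, 0.64, 0.27 and 0.31 in oocytes. In TH it was at -5.45, -5.75, -4.71 and -7.11, above background on 3 of these arrays. In GC and CC it was not well above background on any. All oocyte arrays were thus far over all others, and the oocyte was 6.11 above TH on the log2 scale (adjusted p = 6.5e-10), at least 42.0-fold higher than GC and at least 54.6-fold higher than CC. RSPO4 was lower in level on its own probes, at -3.66, -4.54, -4.63 and -3.91 in oocytes, above background on 3 of these arrays. It was not well above background in TH or GC and was so on 1 CC array. The fitted difference of the oocyte from the somatic mean was 2.8 (SE 0.22, adjusted p = 9.6e-09). No fold is given for RSPO4, since its somatic levels lay mostly at background. With normexp the difference from the somatic mean was -0.35 (adjusted p = 0.079). RSPO3 did not follow the other R-spondins: its difference was -0.42 (adjusted p = 0.38), and its highest mean was in TH.

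DKK1 (chromosome 26, 6852970 to 6855647), an antagonist that acts on LRP5 and LRP6, was at -0.38, -0.59, -0.36 and -0.48 in oocytes. In TH it was at -4.46, -5.66, -4.99 and -5.45, and in GC and CC it was not well above background. The oocyte arrays did not overlap with any somatic array. The oocyte was 4.68 above TH on the log2 scale (adjusted p = 4e-11), at least 23.9-fold higher than GC and at least 31.1-fold higher than CC. DKK3, a relative whose part in WNT signalling is less settled, was higher in oocytes than in the somatic mean by 1.20 (SE 0.24, adjusted p = 0.00027), but its mean of 3.43 was close to that of TH (3.76, adjusted p = 0.31 for the pair).

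Among the ligands, WNT2B was at 2.12, 2.51, 2.59 and 2.39 in oocytes and at 1.22, 2.08, 1.26 and 1.70 in TH. The lowest values were in GC (-1.80 to -0.24), with CC between 0.29 and 0.72. The oocyte was 2.07 above the somatic mean (SE 0.24, adjusted p = 9.1e-07), and its lowest array was just over the highest TH array. WNT7A was higher in oocytes by 1.27 (adjusted p = 0.011), with replicate 1 at -0.50 and the other oocyte arrays between -3.51 and -3.15. Without that array the difference was 0.57 (adjusted p = 0.021), and within slide 2 it was 0.40 (adjusted p = 0.12). WNT4 was the opposite case. It was at -4.57, -5.97, -5.08 and -5.24 in oocytes and highest in GC (-1.56, -0.15, -2.15 and -2.71), with a difference of -2.46 (SE 0.43, adjusted p = 8.3e-05).

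WNT11, a ligand best known from branches of the pathway that do not use beta-catenin, was at -7.25, -6.01, -6.98 and -6.66 in oocytes, well above background on 3 of these arrays. It was at -4.68 to -4.36 in TH, -4.94 to -3.04 in GC and -2.12 to -1.68 in CC. The oocyte was under all of these, by 3.24 (a difference of -3.24, SE 0.27, adjusted p = 2.1e-08). WNT5B was also called lower (-1.59, adjusted p = 0.001). This call came from probe 1 (-2.51, adjusted p = 0.00024). Probe 2, well above background on at most 1 array of a group, gave -0.66 (adjusted p = 0.16). WNT6 was not well above background in oocytes, which were at least 1.57-fold lower than TH (adjusted p = 0.0018).

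FZD1 (chromosome 4, 8490676 to 8494829) had the largest fall of the receptors in the oocyte. It was at -6.70, -6.23, -7.00 and -6.56 there, well above background on 1 array. In TH it was at 2.66, 2.76, 2.97 and 2.91, in GC between -0.17 and 0.20, and in CC between 0.43 and 0.59. These 3 somatic groups did not overlap with each other, and none overlapped with the oocyte, where the difference was -7.74 (SE 0.13, adjusted p = 6e-16). FZD9 was at -6.20, -6.21, -8.35 and -7.53 in oocytes, above background on 1 array, and its difference was -4.50 (SE 0.56, adjusted p = 2.6e-06). FZD2 was higher in oocytes than in the somatic mean by 1.44 (adjusted p = 0.0014) while being lower than in TH by 1.43 (a difference of -1.43, adjusted p = 0.0067). FZD3 and FZD5 passed no test against the somatic mean (differences of 0.29 and 0.21).

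SFRP4 (chromosome 4, 50009882 to 50020466), a secreted Frizzled-related protein, was at -7.05, -6.15, -5.29 and -6.23 in oocytes, above background on 1 array. It was at 1.30, 2.87, 2.26 and 2.45 in TH and at 2.09, 2.82, 2.14 and 3.00 in CC, with GC between -3.30 and -1.32. The oocyte was thus below every somatic array, with a difference of -6.96 (SE 0.37, adjusted p = 7.7e-11). SFRP1, at -1.08 ± 0.18 (SD, n = 4) in oocytes, was higher than the somatic mean by 1.42 (adjusted p = 3.4e-05). It was not higher than in TH (difference -0.58, adjusted p = 0.08), and its lowest mean was in GC (-5.07). For each of the 10 members plotted by array for the oocyte, both probes were called in the same direction when tested singly. Many of these pairs overlap in sequence and are not independent measurements. The shared run was 59 bases in WNT4, 57 in RSPO4, 46 in FZD9, 37 in RSPO1 and 36 in DKK1. It was 27 in FZD1 and in WNT2B, but at most 7 in RSPO2, SFRP4 and WNT11.

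**Figure D3:**
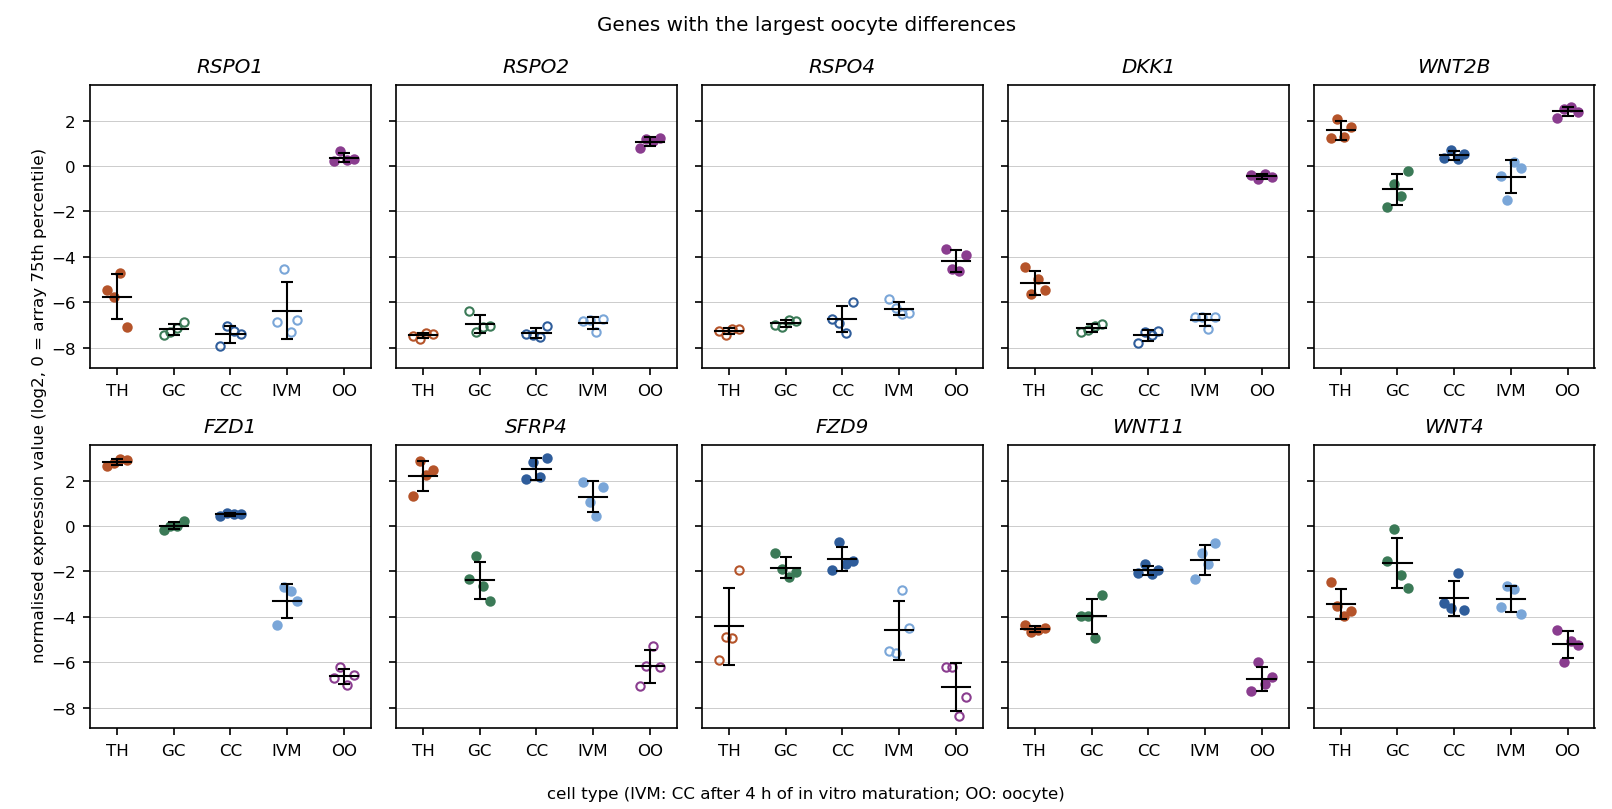
Level on each array (points) with mean and SD (bars, n = 4) of 10 members, those with the 5 greatest positive and the 5 greatest negative differences of the oocyte from the somatic mean, in log2 units relative to the 75th percentile of the array. Open points mark groups with under 3 arrays well above background for that gene. The oocyte arrays lie above the TH, GC and CC arrays in the upper row and below them in the lower row.

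The next comparison, of TH with the mean of GC and CC, set the follicle wall against the granulosa lineage. Antagonists and receptors were higher in TH: SFRP1, SFRP2, SFRP4, DKK1, DKK2, DKK3, FZD1, FZD2, FZD4, FZD6 and FZD7, with the ligands WNT2 and WNT2B and the amplifiers RSPO1 and RSPO3. FZD3, FZD9, FZD10, WNT5A and WNT11 were lower. These were 20 of 41 members (48.8%), 15 higher and 5 lower, where 32.7% of all genes were called (14.3% higher and 18.5% lower). By family, 8 of 10 FZD genes, 3 of 4 SFRP, 3 of 4 DKK and 2 of 4 RSPO genes passed, but 4 of 19 WNT genes. Only 10 of the 19 WNT genes were well above background on at least 3 arrays of TH, GC or CC. For FZD, SFRP, DKK and RSPO these were 8, 3, 3 and 2. No sign of these 20 turned under the alternatives, though 13 members were called with normexp. The calls of DKK1, FZD4, FZD6, FZD7, RSPO1, WNT2 and WNT5A were lost there. FZD7 was well above background on 2 TH arrays and on no GC or CC array. SFRP4 was higher in TH than in GC by 4.62 (adjusted p = 1.7e-06) but not higher than in CC (difference -0.29, adjusted p = 0.74). Within slide 1 its call was lost (1.77, adjusted p = 0.098).

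FZD2, a receptor, was at -1.27, -0.33, -1.28 and -0.01 in TH. In GC it lay between -5.73 and -4.27 and in CC between -5.74 and -4.53. TH was thus clear of both, with a difference of 4.32 (SE 0.36, adjusted p = 2e-07). SFRP1 was at -0.17, -0.58, -0.46 and -0.81 in TH, between -2.17 and -1.70 in CC and between -5.78 and -4.16 in GC. The 3 groups formed separate steps, and TH was 3.00 above the mean of the others (SE 0.24, adjusted p = 1.2e-07). DKK2 was called higher by 3.14 (adjusted p = 7.9e-09), with a gene value of -2.45, -2.95, -1.91 and -2.98 in TH and -5.64 to -5.17 in GC. This call came from probe 1 (5.93, adjusted p = 4.4e-10), since probe 2 gave 0.36 (adjusted p = 0.42).

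SFRP2 was at 0.17, -0.61, 0.34 and -0.06 in TH. In GC it was at -7.11 and -6.15 on the arrays of slide 1 and at -1.38 and 0.08 on those of slide 2, and in CC at -7.19 and -6.65 on slide 1 and -4.07 and -4.15 on slide 2. Its level in these groups thus went with the slide, and 1 GC array reached the range of TH. The difference was 4.54 over both slides (SE 1.09, adjusted p = 0.004), 6.56 within slide 1 and 2.52 within slide 2. Of 6 theca markers, 1 in GC (STAR) and 2 in CC (STAR and COL1A2) were higher on both arrays of slide 2 than on both of slide 1, as were 2 of 4 stroma markers in each of GC and CC. The summed level of 6 theca markers ranged from 4.70 to 6.65 in GC and from 4.61 to 4.98 in CC, against 8.73 to 9.40 in TH, and CYP17A1 was not well above background in CC. The part of theca RNA in the SFRP2 values was not tested.

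RSPO3 was at -3.26, -3.69, -3.13 and -2.59 in TH. In GC it was at -4.02, -3.38, -4.60 and -7.04, and in CC it was not well above background. Of the GC arrays, 1 lay within the TH range and another close to the CC arrays (-7.49 to -7.12). The fitted difference of TH from the mean of both was 2.89 (adjusted p = 0.00018), and TH was at least 4.73-fold higher than CC. On the GC array with the lowest RSPO3, 3 of 5 pericyte and smooth muscle markers (ACTA2, MYH11 and RGS5) were also at their lowest in GC and 2 (TAGLN and DES) were not. The pericyte and smooth muscle list summed to 2.53 to 4.31 in GC, 1.14 to 1.89 in CC and 7.65 to 7.76 in TH. The part of these cells in RSPO3 was not tested.

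Among the genes that were lower in TH, FZD3 was at -3.86, -3.83, -3.93 and -4.72 and the lowest GC or CC array was at -3.06 (difference -1.74, SE 0.22, adjusted p = 1.4e-05). FZD9 was at -5.89, -4.90, -4.95 and -1.95 in TH, so that replicate 4 fell among the GC values (-2.25 to -1.17). Its difference was -2.77 (adjusted p = 0.0018), and -3.60 without that array. Within slide 2 the FZD9 difference was -1.58 (adjusted p = 0.22), so the call was lost. FZD10 was not well above background in TH and was so on 2 GC and 4 CC arrays, and TH was at least 3.48-fold lower than CC. WNT11 was lower in TH than in CC by 2.57 (a difference of -2.57, adjusted p = 1.7e-05), whereas its difference from GC was -0.55 (adjusted p = 0.27). The WNT5A call (-0.90, adjusted p = 0.0053) came from probe 2 (-1.62), with -0.18 on probe 1, and was lost with normexp, with the brightest probe alone and within each slide.

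GC was then compared with CC, cells of the same lineage that differ in lying at the follicle wall or around the oocyte. RSPO3, WNT7A and WNT5A were higher in GC, and SFRP4, SFRP1, WNT11, FZD10, WNT2B and DKK3 were lower. These were 9 of 41 members (22.0%), 3 higher and 6 lower, where 9.88% of all genes were called (4.61% higher and 5.27% lower). With normexp 1 was higher and 6 lower, with the deposited log2 values 2 and 7, and with the percentile over probes detected on all arrays 5 and 6. SFRP4 was at -2.33, -1.32, -2.64 and -3.30 in GC against 2.09, 2.82, 2.14 and 3.00 in CC, so it was lower in GC on every array (difference -4.91, SE 0.45, adjusted p = 9.5e-06). SFRP1 was also lower on every GC array, by 3.13 (a difference of -3.13, SE 0.28, adjusted p = 7.1e-06). WNT11 was at -3.95, -3.97, -4.94 and -3.04 in GC and at -2.08, -1.68, -2.12 and -1.95 in CC (difference -2.02, SE 0.33, adjusted p = 0.0011).

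WNT7A was at -3.20, -2.61, -2.70 and -2.64 in GC and at -5.25, -4.73, -4.90 and -4.49 in CC. GC was above CC on every array (difference 2.06, SE 0.49, adjusted p = 0.015). RSPO3 was called higher in GC, at least 1.57-fold (adjusted p = 0.0063), and its fitted difference was 2.59, or 3.35 without GC replicate 4. FZD10 was at -4.58, -5.16, -5.10 and -6.53 in GC and at -4.42, -2.78, -3.66 and -3.08 in CC, where it was also above the oocyte (the oocyte minus CC was -1.42, adjusted p = 0.0053). The FZD10 call came from probe 1 (-3.08), as probe 2 was well above background on no GC and 2 CC arrays. The WNT5A call of 1.06 came from probe 2 (1.84, adjusted p = 0.0062), with 0.28 on probe 1.

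WNT2B (difference -1.51, adjusted p = 0.0033) and DKK3 (-1.12, adjusted p = 0.021), which were lower in GC than in CC, were both high in the oocyte. The DKK3 call was lost without CC replicate 2 (adjusted p = 0.077). Of 6 oocyte markers, 5 were called lower in GC than in CC, and BMP15 was not. All 6 were well above background on at least 3 CC arrays and 3 on GC arrays, with summed levels of -0.83 to 1.59 in CC and -2.49 to -1.32 in GC. RSPO1, RSPO2 and DKK1, which were far higher in the oocyte, were above background on no CC array. The part of oocyte RNA in the CC values of WNT2B and DKK3 was not tested. Within slide 1, with 2 arrays per group, 2 members were called, and within slide 2, 4 members. SFRP1 alone was called in both slides. The calls of WNT7A, WNT5A and FZD10 were also lost with normexp, and that of WNT7A with the deposited log2 values.

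**Figure D4:**
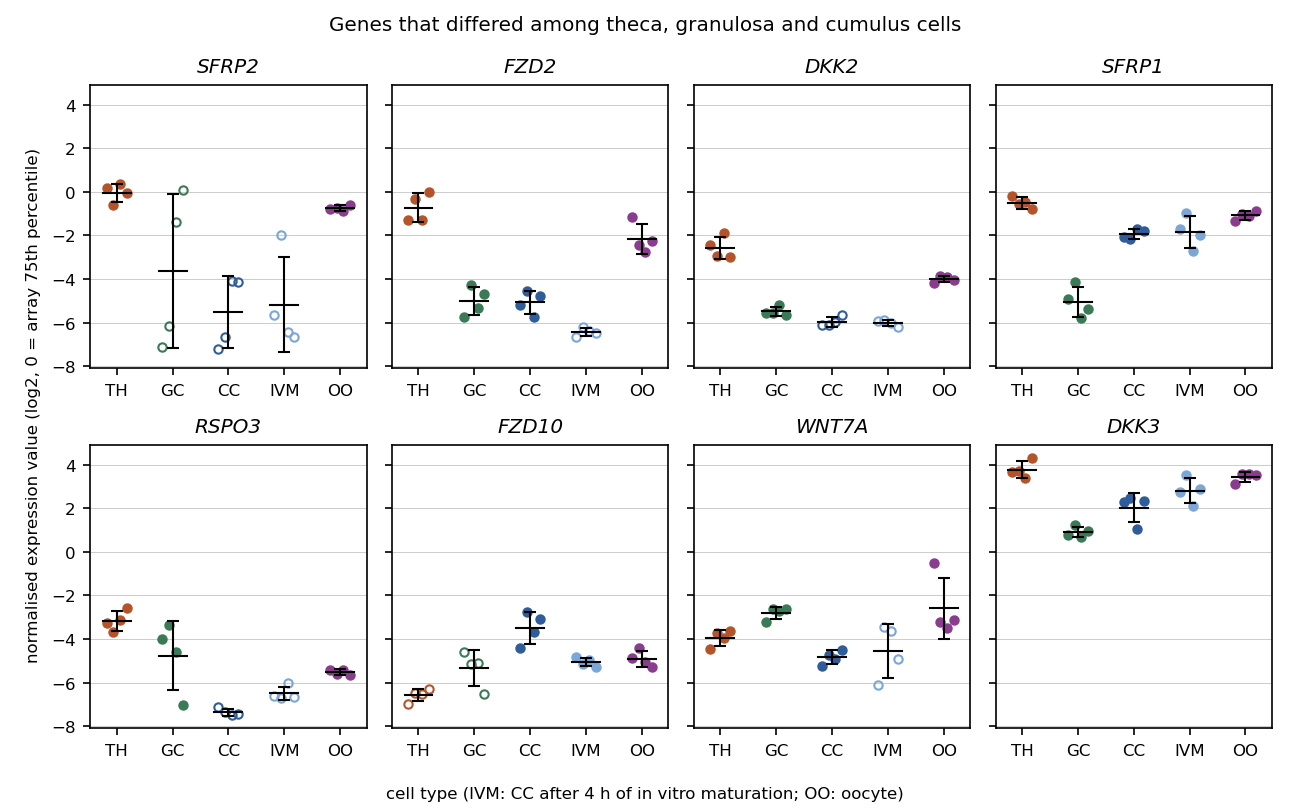
Level on each array (points) with mean and SD (bars, n = 4) of 8 members that differed among TH, GC and CC, in log2 units relative to the 75th percentile of the array. Open points mark groups with under 3 arrays well above background for that gene. SFRP1 falls in steps from TH to CC to GC, and SFRP2 is spread over more than 7 log2 units in GC.

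CC after 4 h of IVM were compared with CC, in a fit of these 8 arrays, to ask which members move in the first hours of maturation. The ligands WNT2 and WNT5B and the receptors FZD6 and FZD7 were higher after IVM, and FZD1, FZD2, FZD5, FZD9, FZD10, SFRP4 and WNT2B were lower. Limma called 16 of 41 members (39.0%), 9 higher and 7 lower, where 45.8% of all genes were called (30.3% higher and 15.5% lower), so the share of members was below the background. Among the higher calls, DKK1, RSPO3, WNT3, WNT3A and WNT10A were not above background on at least 3 arrays of either group, and no fold is given for them. The median difference of all genes was 0.37, and that of the members 0.45. With quantile normalization the median of all genes was 0.01, and 4 members were higher and 7 lower. With normexp 32 were higher and 4 lower, and with the deposited log2 values 22 and 5. The median of all genes was 0.55 with normexp and 0.25 with the deposited values. All arrays of CC after IVM were on a slide of their own, so IVM and slide cannot be told apart. With slide as a random block, an alternative added after the data were seen, 27 members were called, 20 higher and 7 lower.

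FZD1 was at 0.43, 0.59, 0.52 and 0.54 in CC and at -4.37, -2.70, -2.85 and -3.32 after IVM. Every IVM array was under every CC array, with a difference of -3.83 (SE 0.34, adjusted p = 3.8e-05). FZD9 was at -1.92, -0.72, -1.68 and -1.55 in CC and at -5.52, -5.61, -2.80 and -4.48 after IVM, where 2 arrays were above background (difference -3.14, SE 0.58, adjusted p = 0.0026). FZD10 was above background on all 8 arrays and was between -5.28 and -4.82 after IVM, below its CC values (difference -1.57, SE 0.33, adjusted p = 0.0058). FZD2 was at -5.17, -4.53, -5.74 and -4.80 in CC and not well above background after IVM. FZD5 was at -5.77, -3.78, -5.09 and -4.69 in CC and at -6.87, -6.35, -5.38 and -6.78 after IVM, with 1 array above background there, and the groups overlapped. No fold is given for FZD2 (adjusted p = 0.0038), since its level after IVM is only a bound. The differences of FZD2 and of FZD5 (-1.51, adjusted p = 0.024) turned to 0.32 and 0.19 with normexp, and only probe 1 of each was called singly. The FZD5 call was also lost without CC replicate 2 or without replicate 1 or 4 of the IVM arrays (adjusted p = 0.062 without the last).

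WNT2 was at -6.35, -7.09, -7.37 and -3.87 in CC, above background on 1 of these arrays, and at -2.78, -0.86, -2.89 and -3.14 after IVM. The groups did not overlap, though CC replicate 4 came within reach of the IVM arrays. The difference was 3.75 (SE 0.77, adjusted p = 0.0047) and 4.52 without that CC array. FZD7 was not well above background in CC and was at -4.35, -5.09, -4.86 and -3.74 after IVM, at least 1.87-fold higher (adjusted p = 0.00024). FZD6 was at -5.59, -5.88, -6.70 and -6.64 in CC and at -3.86, -3.69, -4.21 and -3.92 after IVM (difference 2.28, SE 0.28, adjusted p = 0.00027). WNT5B was called higher after IVM by 1.31 (SE 0.30, adjusted p = 0.0079). Its gene value, which lies between discordant probes, was -4.63 to -4.26 in CC and -3.94 to -2.61 after IVM. The call came from probe 2 (1.88, adjusted p = 0.0097), which was well above background on no CC array and 1 IVM array. Probe 1, well above background on 4 arrays of each group, gave 0.74 (adjusted p = 0.23). The calls of WNT2 and WNT5B were lost when the brightest probe alone stood for the gene, and that of FZD10 with normexp. WNT4, WNT11 and SFRP1 passed no test, with differences of -0.03, 0.46 and 0.10.

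SFRP4 was at 1.94, 1.06, 0.43 and 1.70 after IVM, below its CC values (difference -1.23, adjusted p = 0.023), and the call was lost without CC replicate 4 (adjusted p = 0.055). Of the 4 genes of cumulus maturation found on the array, HAS2, AREG (at least 15.4-fold) and EREG (at least 8.12-fold) were higher after IVM, and PTX3 was not called (-0.11, adjusted p = 0.86). Of 6 oocyte markers, 4 (ZP2, ZP3, ZP4 and NLRP5) were lower after IVM and GDF9 and BMP15 were not called (-0.75 and -0.21), with summed levels of -2.64 to -0.84 against -0.83 to 1.59 in CC. WNT2B was called lower (difference -0.94, adjusted p = 0.047). This call was lost with quantile normalization (adjusted p = 0.073), with the brightest probe (adjusted p = 0.054) and without CC replicate 2, where the difference was -0.59 (adjusted p = 0.1). On IVM replicate 2, WNT2 and SFRP2 (-1.98, with -6.65 to -5.67 on the others) were the highest of the group, as were 3 of 6 theca markers and 3 of 4 stroma markers. Without this array the WNT2 difference was 3.23 (adjusted p = 0.01). The part of oocyte or stromal RNA in these values was not tested.

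**Figure D5:**
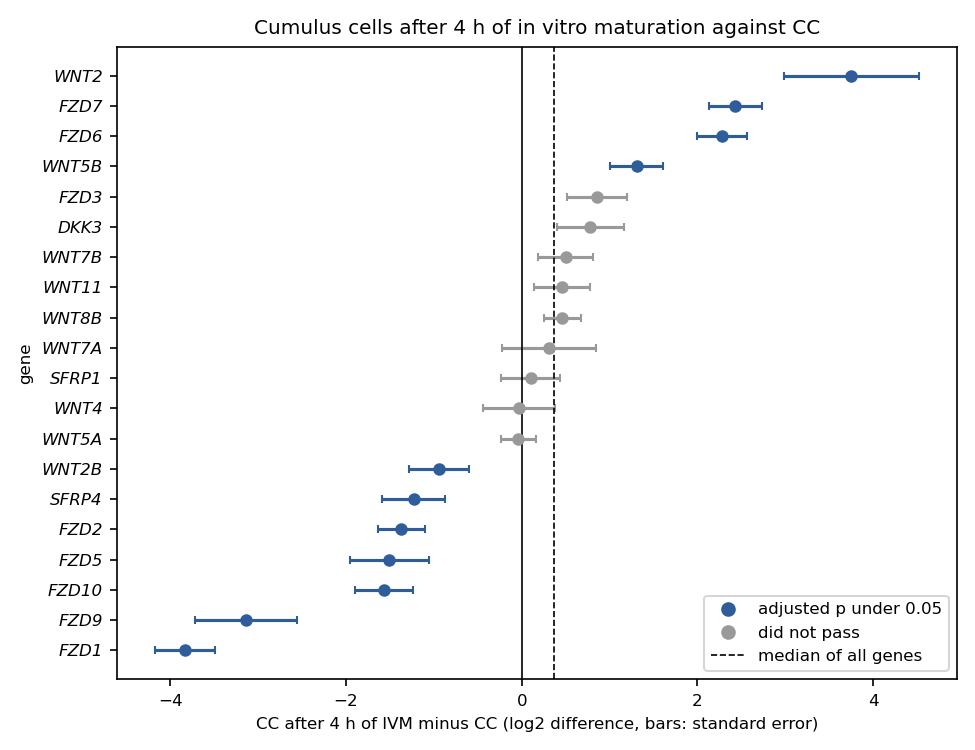
Difference between CC after IVM and CC (log2, points, with standard errors as bars, 4 arrays per group) for the 20 members well above background on at least 3 arrays of either group. The dashed line marks the median of all genes, 0.37. Blue points passed limma at an adjusted p under 0.05: WNT2, FZD7, FZD6 and WNT5B lie on the right and 7 members, from WNT2B to FZD1, on the left.

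The other genes of the pathway were described from a list of 50, of which 48 were found by name on the array. In the oocyte, 22 were called higher and 18 lower (83.3% of the 48, with 71.3% of all genes). The secreted antagonists SOSTDC1 and WIF1 were at 1.54 and 0.48 in oocytes, the latter between 0.38 and 0.53 on every array, and neither was well above background in GC. The oocyte was at least 95.4-fold higher than GC in SOSTDC1 and at least 45.6-fold higher in WIF1, which binds WNT directly (adjusted p = 1.4e-12 and 3.7e-13). LEF1, a transcription factor that beta-catenin binds, was higher by 4.01, and the co-receptor LRP5 (-3.89) and the WNT5A receptor ROR2 (-5.58) were lower. AXIN2, a feedback target of the pathway, was at 1.78 in oocytes, -0.16 in TH, -1.23 in CC and -2.70 in GC. Of the 6 feedback targets listed, AXIN2 and NKD1 were called higher in the oocyte, and APCDD1 and TNFRSF19 were called lower.

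In TH, 9 of these genes were called higher and 9 lower than in GC and CC (37.5%, near the 32.7% of all genes). FRZB, an SFRP relative, was at -0.44, -0.41, -0.45 and -1.01 in TH and at -7.05 to -4.16 in GC (difference 4.77, adjusted p = 3e-07), and WLS, which carries WNT ligands to the cell surface, was higher by 2.76. TH was also higher in NKD1, at least 1.47-fold, as GC and CC were not well above background. Of the 9 lower genes, ROR2 had the largest difference (-3.59, adjusted p = 2.7e-09). Between GC and CC, 4 were higher in GC and 6 lower (20.8%, with 9.88% of all genes), among them TNFRSF19 (at least 6.97-fold higher in GC), AXIN2 (-1.47) and CTNNB1, the gene of beta-catenin (-1.27). After IVM, 18 were higher and 8 lower (54.2%, with 45.8% of all genes), and 9 of the higher calls were of genes not above background on at least 3 arrays of either group. LGR5, a receptor of R-spondins, was at -3.02, -4.37, -1.98 and -2.87 after IVM and well above background on none of the other 16 arrays, so it was at least 5.10-fold higher after IVM than in CC (adjusted p = 0.00021). ROR2 fell from between 3.87 and 4.13 in CC to between -0.17 and 0.64 after IVM (difference -3.68, adjusted p = 6.4e-06), and TLE4, APCDD1 and WLS were higher by 2.59, 2.30 and 1.82.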

How the data were processed

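Total RNA of 20 samples, 4 each of TH, GC, CC, CC after IVM and oocytes, had been hybridised to 1-colour arrays. Per the labels, the authors deposited Agilent Feature Extraction (version 10.7.3.1) output, in which each spot has a processed intensity after background subtraction and detrending, with no normalization between arrays. They also deposited a table of log2 values, which equalled log2 of the median pixel signal minus the array median within 5e-09, so that no background had been subtracted from it. No saturated spots were marked on any array. Samples were grouped by their titles.

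Control spots and outlier-marked spots (0 to 23 per array) were left out. Log2 processed signals were set relative to their 75th percentile over non-control probes on the same array. These steps were chosen here. The median over the spots of a gene was then taken, which is the summary that the study's methods name. Symbols came from the array file with the ending of transcript isoforms removed, and 734 of 9779 unnamed probes were named by accession. Linear models were fitted over all 22550 genes with limma 3.58.1 (lmFit and eBayes, R 4.3.3, data.table version 1.17.8), over 16 arrays for the cell types and over 8 for IVM, with Benjamini-Hochberg adjustment of the p-values over these genes. The study's analysis of variance with pairwise tests was thus run in its moderated form. The fits were tested on simulated data. Python 3.11.15 (pandas 2.3.3, numpy 2.4.6) served for the tables and matplotlib 3.10.9 for the plots.

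Of the probes, 54.2% to 68.8% were well above background per array, except oocyte replicate 2 with 49.3%. The number of arrays limits the precision. Replicates 1 and 2 of TH, GC, CC and oocytes were on slide 1, replicates 3 and 4 on slide 2, and all arrays of CC after IVM on slide 3. Deviations from the group means correlated over 0.1 for each of the 4 same-numbered pairs of TH and GC arrays (0.192 to 0.440). The labels do not say what these arrays share, and the main fits did not treat them as pairs. With the replicate number as a block, 19 of the 20 members called between TH and GC remained. Alternatives were other scalings, normexp background correction (offset 50), the deposited log2 values, other summaries over probes, a filter on dim genes, slide or replicate number as a block, each slide alone, all arrays in 1 fit, a plain linear model and each array left out. Members and lists were chosen with earlier results of these data known.

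Every member was accounted for. Values on every array were given for up to 5 members with the largest positive and 5 with the largest negative difference among those called in each comparison, and of other pathway genes up to 5 per comparison. Genes named outside these were chosen after their values were seen. Coordinates and probe sequences are those of the array file (UMD 3.1); no genome was used, so whether a probe lies in a coding exon or a UTR was not determined.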

Additional observations from a re-analysis of the deposited data

Results flagged for a closer look

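In 100 sets of 4 arrays (a member in a group where it was well above background on at least 3 arrays), 8 held an array far from the other 3, where chance alone gives about 1 in 20. WNT7A reached -0.50 in oocyte replicate 1 (others -3.51 to -3.15). WNT2 reached -0.86 on replicate 2 of CC after IVM (others -3.14 to -2.78). FZD5 in oocyte replicate 1 was at -3.79 (others -5.23 to -5.02), and DKK3 in the same sample was at 3.09 (others 3.51 to 3.59). DKK3 in CC replicate 3 was at 1.04 (others 2.27 to 2.45), and its difference between GC and CC was -1.45 without that array (adjusted p = 0.0011), while the call was lost without CC replicate 2 (adjusted p = 0.077). FZD3 in TH replicate 4 was at -4.72 (others -3.93 to -3.83). The WNT5A median of the same array was 1.13 (others 1.93 to 2.10), but it lies between discordant probes and is not a level of the gene. WNT7A in GC replicate 1 was at -3.20 (others -2.70 to -2.61). Left out in turn, these arrays did not end the calls of WNT2 after IVM, WNT7A and DKK3 in the oocyte and between GC and CC, or FZD3 and WNT5A in TH.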

How the results depend on the processing

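The count of members called stayed within 1.5 times its main value under all alternatives for the F-test and for the oocyte, where the lowest and highest counts with 1 array left out were 30 and 38, and 25 and 32. For TH against GC and CC these were 20 and 21, with 13 called under normexp. For GC against CC they were 7 and 11, with 2 within slide 1 and 4 within slide 2, where each group had 2 arrays. For CC after IVM they were 10 (without IVM replicate 4) and 18, with 36 called under normexp, 27 with the deposited values and 27 with slide as a random block. Same-numbered arrays of TH and GC deviated together, but in each other pair of groups at least 1 same-numbered correlation was not over 0.1 (from -0.272 to 0.332). With the replicate number as a block 31 members passed the F-test and 27, 20, 10 and 12 were called in the oocyte, TH, GC and IVM comparisons.

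Of the 38 named differences, those that turned sign did so with normexp: RSPO4 in the oocyte (-0.35), and FZD5 (0.19) and FZD2 (0.32) after IVM. Under the other alternatives none of the 38 turned. The cause was not tested. Signal close to background is the limit for 10 members, which were well above it on at most 2 arrays. The split of oocyte calls moved with the scaling and the background correction (7 higher and 29 lower under normexp, 17 and 20 with the deposited values, 16 and 13 with the percentile over probes detected on all arrays). After IVM, 32 higher and 4 lower were called under normexp. Shares of all genes called are given for the main setting only, so counts under the alternatives are not read as a trait of the members. Of all 71 calls of members in the 4 comparisons, 10 were lost with some array left out: WNT1 in the oocyte, DKK3 and WNT5A between GC and CC, and DKK1, FZD5, SFRP4, WNT2B, WNT3, WNT3A and WNT10A after IVM.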
